A study of Caenorhabditis elegans with 15 samples.

Results

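The transcriptome of fndc-1 mutant worms was set against that of wild-type worms, gene by gene and then by biological process. The RNA came from whole Caenorhabditis elegans, 1 day into adulthood, that had been kept under standard conditions without stress. The mutant strain carries the allele rny14 of fndc-1, and the wild type is the strain N2. Each strain gave 5 libraries, so 10 of the 15 libraries of the series enter the comparison. The other 5 come from a strain that carries atfs-1(tm4525) together with fndc-1(rny14), called the double mutant here. They enter the choice of genes tested, the scaling and the estimate of the spread between libraries. Their levels are given beside some genes only. The sources used here do not describe separate cultures or outcrossing. Only 1 strain with fndc-1(rny14) alone was profiled, and the other carrier of this allele also has atfs-1(tm4525). In the comparison of fndc-1 with wild type, an effect of the allele and any other difference between these strains cannot be told apart.

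Mitophagy is the removal of damaged or surplus mitochondria by autophagy. A receptor on the outer mitochondrial membrane binds the LC3 family proteins of the forming autophagosome and so marks the organelle for engulfment. FNDC-1 is the worm homolog of the mammalian receptor FUNDC1, which is best known for mitophagy under low oxygen. In worms fndc-1 is also known for a part in the removal of paternal mitochondria from the embryo. The comparison asks how the loss of such a receptor alters transcript levels across the animal when no stress is given.

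The targeted gene was low in every mutant library. Levels are given as CPM, read counts scaled to a common library size. fndc-1 (chromosome II, 11236624 to 11237325, build WBcel235) had 7.38, 7.52, 7.26, 7.26 and 7.53 CPM in fndc-1 libraries, against 47.2, 40.3, 40.4, 39.8 and 36.8 CPM in wild-type libraries. No library of one strain reached the range of the other, and the mean was 7.39 ± 0.130 CPM in fndc-1 and 40.9 ± 3.83 CPM in wild type (SD, n = 5 each, as for every mean below; log2 -2.47, SE 0.106, adjusted p = 1.86e-09). Library totals ran from 46984106 to 61921123 counts, so 3 counts corresponded to at most 0.0653 CPM in any library. Libraries of the same strain differed among themselves. On the first principal component of the 10 libraries (41.6% of the variance) fndc-1 library 4 and wild-type libraries 2 and 4 lay at -63.1, -48.9 and -35.2, and the others between -19.1 and 47.1. The second component (21.5%) separated the strains, with 12.7 to 35.5 in fndc-1 libraries and -36.4 to -10.6 in wild-type libraries. Sperm transcripts, given with the germline genes below, were also high in fndc-1 library 4 and wild-type libraries 2 and 4.

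Of 15032 genes tested with edgeR's quasi-likelihood test and Benjamini-Hochberg adjustment over all of them, 281 passed the threshold of 0.05 (1.87%). Of these 178 were higher (1.18%) and 103 lower in fndc-1 (0.685%), and 2247 genes had an unadjusted p under 0.05. Over all tested genes the median log2 fold change was 0.0034. The fndc-1 and wild-type libraries did not overlap for 1207 genes (8.03%), 601 with fndc-1 higher (4%) and 606 with fndc-1 lower (4.03%). In a fit of the 10 libraries alone, 575 of 14439 genes passed (3.98%), 357 higher (2.47%) and 218 lower (1.51%), and 258 of them were among the 281. The number of calls depended on single libraries. It was 149, 146 and 157 without fndc-1 libraries 1, 2 and 3, 162, 152 and 185 without wild-type libraries 2, 4 and 5, and 736 without double-mutant library 2. Of the 281 genes, 123 kept their call whichever single library was left out, 34 lost it without 1 to 4 of the libraries and 124 without 5 or more. Libraries whose removal ended a call are given by strain and number beside the gene. The worms were sequenced whole, so fewer cells of a type and less RNA per cell cannot be told apart.

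Most changes were modest, and many of the largest lay in short stretches of chromosome. Of the 281 genes, 31 lay in a pair of segments, at the left end of chromosome X and the right end of chromosome I. The remaining 250 had a median size of 0.77 on the log2 scale. Among these, 165 were higher (median log2 0.73, 39 of them by more than 2-fold) and 85 lower (median log2 -0.99, 41 of them by more than 2-fold). The share of tested genes that passed was 1.45% on chromosome I, 1.27% on II, 1.21% on III, 2% on IV, 2.66% on V and 2.52% on X. Of the 281, 146 have only a sequence name and no gene-class symbol.

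At the left end of chromosome X a block of genes gave almost no reads in any fndc-1 library. Between positions 42632 and 286216, from Y73B3A.1 to Y47C4A.1, 20 genes were tested and 18 passed, all lower in fndc-1. Of the 18 genes in this segment with at least 50 counts over the wild-type libraries, 11 had 0 counts in all 5 fndc-1 libraries, 4 had between 1 and 50 and 3 had more. Summed over the 31 genes of the segment in the table, there were 2140 counts in fndc-1 libraries, 44235 in double-mutant libraries and 45329 in wild-type libraries. The double mutant, labelled with the same fndc-1 allele, was thus close to wild type here. The borders of the segment were set after the values were seen.

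Y73B3A.1, the first gene of the segment, had 5, 3, 7, 8 and 8 counts in fndc-1 libraries, against 4174, 4699, 5879, 4880 and 6826 counts in wild-type libraries. The wild-type level was 833 times that of fndc-1 (95% counting interval 586.4 to 1226, log2 -9.67, adjusted p = 2.84e-10). Y73B3A.4 (chromosome X, 95614 to 104777) had 0 counts in every fndc-1 library, against 1101, 1026, 1283, 1233 and 1598 counts in wild-type libraries. With a floor of 3 counts over the 5 libraries it was at least 2030.0-fold lower in fndc-1 (adjusted p = 1.73e-07). Genes at 0 in fndc-1 also included Y73B3A.20 (at least 409-fold lower), T08D2.8 (at least 599-fold lower) and T08D2.7, now named chkr-2 (at least 223-fold lower). Y47C4A.1, the last gene of the block, was at least 67.0-fold lower. The SET domain gene set-28 was at 0 in fndc-1 as well, but it had only 10, 4, 2, 2 and 8 counts in wild type (at least 8.45-fold lower), and its call was lost with the replicate number as a block (adjusted p = 0.0667).

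AC8.4 and AC8.11, AC8.3 and AC8.10, and AC8.7 and AC8.12 are pairs with nearly equal counts, so their separate levels are uncertain. All 6 were at 0 in fndc-1, with 120 to 322 counts each over the wild-type libraries. T08D2.1, now named tmed-12, had 1 count in fndc-1 and 644 in wild type, a ratio of 628 with a counting interval of 112.4 to 24850. T08D2.6 had 2 counts in fndc-1 and 1573 in wild type, a ratio of 767 with an interval of 212 to 6341. T08D2.5 had 6 counts in fndc-1 and 492 in wild type. Y73B3B.1 had 5 counts in fndc-1 and 47 in wild type (log2 -3.03, adjusted p = 0.0169). Y73B3B.1 did not pass without fndc-1 1 (adjusted p up to 0.0542).

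A few genes inside the same segment kept reads in fndc-1. The pseudogene Y73B3A.18 had 5.94, 5.61, 7.06, 8.21 and 7.61 CPM in fndc-1 libraries, against 13.6, 13.9, 18.8, 13.4 and 17.3 CPM in wild-type libraries (log2 -1.16, SE 0.130, adjusted p = 0.000129), and the groups did not overlap. T08D2.4 had 0.801 ± 0.107 CPM in fndc-1 and 0.881 ± 0.163 CPM in wild type (log2 -0.14, 95% interval -0.61 to 0.33, adjusted p = 0.874). Its span lies inside that of T08D2.5, which had 6 counts over the fndc-1 libraries where T08D2.4 had 205. Y73B3A.11 had 0.417 ± 0.200 CPM in fndc-1 and 0.447 ± 0.135 CPM in wild type (log2 -0.10, 95% interval -0.70 to 0.51, adjusted p = 0.939), with a sign that turned positive without fndc-1 library 3 (log2 0.05) or wild-type library 4 (log2 0.08). The strains overlapped for both genes. Just beyond the block, gcp-2.1 (chromosome X, 301830 to 308303) had 65.2, 63.9, 62.4, 50.96 and 51.3 CPM in fndc-1 libraries, against 49.3, 51.8, 50.8, 48.7 and 51.9 CPM in wild-type libraries, a difference that did not pass (log2 0.22, adjusted p = 0.18). The plot of this chromosome end shows the return of reads at R57.2, the next tested gene.

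**Figure D1:**
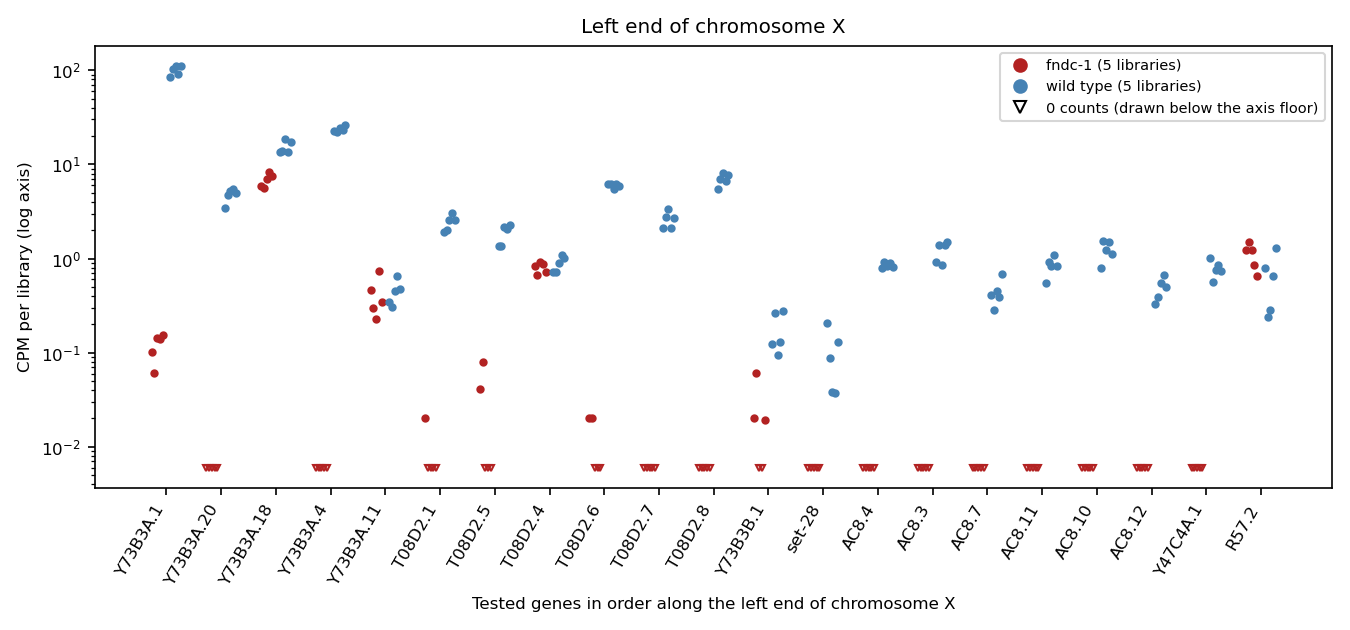
CPM in each of 5 fndc-1 libraries (red, left of each position) and 5 wild-type libraries (blue), on a log axis, for the tested genes at the left end of chromosome X in their order along it. Open triangles stand for 0 counts and are drawn at a fixed height under the measured range; 18 of the 20 genes from Y73B3A.1 to Y47C4A.1 passed as lower in fndc-1, and R57.2 beyond them overlapped between the strains.

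Across the genome, 12 genes had 0 counts in all 5 fndc-1 libraries and at least 50 over the wild-type libraries. The 11 on chromosome X are those above, and the other was nhr-131 (chromosome V, 494370 to 497297), which encodes a nuclear hormone receptor. It had 0 counts in each fndc-1 library, against 191, 247, 191, 341 and 235 counts in wild-type libraries, and was at least 392-fold lower in fndc-1 (adjusted p = 5.85e-08). The double-mutant libraries held 1230 counts of nhr-131 and the wild-type libraries 1205. The nearest tested gene before it, nhr-106 of the same receptor family, rose: 7.97, 7.20, 7.82, 5.89 and 5.14 CPM in fndc-1 libraries, against 3.24, 3.57, 2.66, 4.06 and 2.96 CPM in wild-type libraries (log2 1.04, SE 0.172, adjusted p = 0.00438). Between them str-196 had 4 counts in fndc-1 and 15 in wild type, and on the other side T01G6.1 had 0 counts in fndc-1 and 14 in wild type. In the opposite direction a single gene, C32H11.9, had at least 50 counts in fndc-1 and 0 in every wild-type library. It is now named cld-1 and encodes a protein with a CUB-like domain (chromosome IV, 12935011 to 12936257). Its counts were 199, 155, 158, 27 and 101 in fndc-1 libraries, at least 219-fold higher than in wild type (adjusted p = 0.00136). The double-mutant libraries held 1308 counts of C32H11.9.

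At the right end of chromosome I neighbouring genes were higher together. Of 17 tested genes between positions 14967301 and 15058994, from ZK909.6 to F31C3.6, 13 passed, all higher in fndc-1, and the median log2 fold change was 1.29 (0.18 to 1.84). Of the 17 tested genes just before them, 1 passed and the median was 0.07. The last of these, the transcription factor gene ces-2, was high without passing (log2 2.13, adjusted p = 0.0651). The segment is bounded by its first and last called gene, so its share and the contrast with the genes before it partly follow from those borders. The most abundant gene of the segment was cyn-5, a cyclophilin gene whose product belongs to the peptidyl-prolyl isomerases that help proteins fold. It had 1092, 1059, 1026, 891 and 906 CPM in fndc-1 libraries, against 376, 345, 314, 332 and 313 CPM in wild-type libraries. Every fndc-1 library was more than 2-fold above every wild-type library (log2 1.57, SE 0.105, adjusted p = 3.57e-07), and the double mutant averaged 402 ± 60.6 CPM. The double mutant averaged 86.6 ± 10.4 CPM of zipt-1, 33.4 ± 13.4 CPM of tep-1, 7.58 ± 1.03 CPM of set-10, 45.4 ± 7.19 CPM of psf-2 and 10.04 ± 4.01 CPM of ZK909.6, each below its mean in fndc-1.

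zipt-1, which encodes a zinc transporter of the ZIP family, had 193, 187, 186, 201 and 201 CPM in fndc-1 libraries, against 102.1, 92.4, 105, 101.7 and 103 CPM in wild-type libraries (log2 0.95, SE 0.0776, adjusted p = 3.96e-06). tep-1, which encodes a thioester-containing protein of the complement-related family, had 106.4 ± 22.5 CPM in fndc-1 and 42.2 ± 5.43 CPM in wild type (log2 1.33, adjusted p = 0.0107). The SET domain gene set-10 averaged 21.9 ± 1.596 CPM in fndc-1 and 9.75 ± 0.944 CPM in wild type (log2 1.16, adjusted p = 1.81e-05). psf-2, a subunit gene of the GINS complex of DNA replication, averaged 78.8 ± 2.6002 CPM in fndc-1 and 52.9 ± 4.59 CPM in wild type (log2 0.58, adjusted p = 0.00603). Genes without a class symbol rose to like degrees, among them F33H2.6 (log2 1.36, adjusted p = 1.73e-07), F33H2.3 (log2 1.29, adjusted p = 1.81e-05), F33H2.2 (log2 0.93, adjusted p = 0.000129), ZK909.6 (log2 1.84, adjusted p = 0.000789) and F31C3.6 (log2 1.84, adjusted p = 0.000129). The transcription factor gene klu-1 (log2 1.62, adjusted p = 0.000464), mtd-1 (log2 1.70, adjusted p = 0.00032) and F31C3.2 (log2 0.51, adjusted p = 0.0309) were the remaining calls. F31C3.2 did not pass without fndc-1 1, 3 or 4, or wild-type 1, 2 or 4 (adjusted p up to 0.0892). psf-2 and tep-1 did not pass without wild-type libraries 2 and 4 (adjusted p = 0.0722 and 0.0503).

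Not every gene of the segment rose. pole-1, the catalytic subunit gene of DNA polymerase epsilon, had 218 ± 29.4 CPM in fndc-1 and 193 ± 23.2 CPM in wild type (log2 0.18, 95% interval -0.22 to 0.58, adjusted p = 0.785). The helicase gene dog-1 had 82.9 ± 5.29 CPM in fndc-1 and 66.9 ± 5.49 CPM in wild type (log2 0.31, 95% interval 0.08 to 0.54, adjusted p = 0.225), with no overlap between the strains. Several pairs here overlap at their ends (F33H2.2 with set-10, F31C3.2 with cyn-5, psf-2 with F31C3.6, mtd-1 with pole-1), and without a known strand setting reads over the shared stretch cannot be told apart. In the plot of this end, the genes left of the dashed line scatter around 0 and those between it and F31C3.6 lie above 0.

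Smaller runs of neighbours also moved one way. A run was taken as at least 3 called genes with gaps of at most 30000 bases, bounded by its first and last call. The shares of tested genes that passed within a run therefore partly follow from that choice. On chromosome IV between 4072327 and 4084209, 4 of 5 tested genes were higher: pqn-75, C35B1.8, C35B1.4 and C35B1.5. C35B1.5 had 152, 144, 138, 117 and 105 CPM in fndc-1 libraries, against 70.2, 58.0, 55.6, 53.2 and 49.0 CPM in wild-type libraries (log2 1.198, adjusted p = 0.00136). The double mutant averaged 176 ± 51.8 CPM of C35B1.5, and for all 4 called genes of this run its mean was above that of fndc-1. The calls of C35B1.4 (log2 1.19, adjusted p = 0.0464) and C35B1.8 (log2 1.92, adjusted p = 0.0238) were less stable. C35B1.4 did not pass without fndc-1 1, 2, 3 or 5, or any single wild-type library, or double-mutant 1, 3 or 5 (adjusted p up to 0.154). C35B1.8 did not pass without fndc-1 1, 3 or 4, or wild-type 1, 2 or 5 (adjusted p up to 0.0673). On chromosome IV between 4290218 and 4295689, 3 of 4 were lower: dct-7 (log2 -3.59, adjusted p = 0.00411), F15E6.4 (log2 -1.27, adjusted p = 0.0269) and F15E6.3 (log2 -1.99, adjusted p = 0.0132). F15E6.4 did not pass without any single fndc-1 library, or wild-type 1 or 5, or double-mutant 5 (adjusted p up to 0.084). F15E6.3 did not pass without wild-type libraries 2 and 4 (adjusted p = 0.0952) or without fndc-1 libraries 4 and 5 (adjusted p = 0.0588). For dct-7, F15E6.4 and F15E6.3 the double-mutant mean lay between those of fndc-1 and wild type.

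A further run on chromosome IV, from 12907469 to 12941354, had 4 of 10 tested genes higher: K08D8.4 (log2 0.66, adjusted p = 0.0176), C32H11.4 (log2 1.85, adjusted p = 0.000129), C32H11.9 and dod-24. K08D8.4 did not pass without fndc-1 2 or 3 (adjusted p up to 0.0565). In the double mutant all 4 averaged above fndc-1, with dod-24 at 79.5 ± 22.9 CPM and C32H11.4 at 9.16 ± 2.31 CPM. On chromosome V from 13727761 to 13777772, 5 of 12 were higher: dct-17, F35E12.10 (log2 0.78, adjusted p = 0.00133), cld-9, F20G2.5 (log2 1.198, adjusted p = 0.048) and F53C11.1 (log2 0.53, adjusted p = 0.0479). F20G2.5 did not pass without fndc-1 1, 2 or 3, or wild-type 1, 2, 4 or 5, or double-mutant 1, 3 or 5 (adjusted p up to 0.14). F53C11.1 did not pass without fndc-1 1, 2 or 3, or wild-type 1, 2, 4 or 5, or double-mutant 1, 3 or 5 (adjusted p up to 0.181). All 5 called genes of this run averaged above fndc-1 in the double mutant, with dct-17 at 17.4 ± 1.28 CPM. A pair of genes with sequence names, apart from any run, had large falls. Y102A5C.36 (chromosome V, 16926922 to 16927445) had 0.488, 0.541, 0.331, 0.668 and 0.524 CPM in fndc-1 libraries, against 8.005, 7.73, 7.50, 8.06 and 7.09 CPM in wild-type libraries (log2 -3.90, adjusted p = 1.86e-09). C08F11.7 (chromosome IV, 13637275 to 13638666) had 0.631, 1.06, 0.704, 0.932 and 1.09 CPM in fndc-1 libraries, against 9.17, 10.6, 11.3, 10.5 and 10.6 CPM in wild-type libraries (log2 -3.56, adjusted p = 1.86e-09). The double mutant averaged 14.8 ± 2.46 CPM of Y102A5C.36 and 10.1 ± 0.633 CPM of C08F11.7. The genes of these runs and segments that have only sequence names were picked after their values were seen.

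Genes were then grouped into 61 lists by process, and each list is described by how many members passed the test over all genes and by its median. The background for these counts is 1.18% higher and 0.685% lower. In the fit of 10 libraries it is 2.47% higher and 1.51% lower. Over all genes tested, 2247 of 15032 had an unadjusted p under 0.05 and 7604 had a log2 fold change above 0. Counts of members by these measures are to be read against those. No test of a list as a whole was run. Summed CPM did not overlap between the strains for 9 of the 61 lists. It was higher in fndc-1 for 3 (UDP-glucuronosyltransferases, hypoxia response, collagens) and lower for 6 (glycolysis, cytochrome P450, metallothioneins, insulin pathway, autophagy, F-box). The score of a list, the mean log2(CPM + 1) of its members centred over the 10 libraries, did not overlap for 6 of the 61. It was higher in fndc-1 for UDP-glucuronosyltransferases, heat shock and the coelomocyte and somatic gonad markers, and lower for the insulin pathway, for autophagy and for the mitophagy list. The mitophagy list holds fndc-1 itself. The insulin pathway list holds mtl-1 (log2 -2.83), which is in the metallothionein list too. Scores without these genes are not given here. Of single genes 8.03% did not overlap. Members named without a call, or with one in the fit of 10 libraries alone, were picked after their values were seen. The plot of all lists shows how thinly the calls were spread over many processes.

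**Figure D2:**
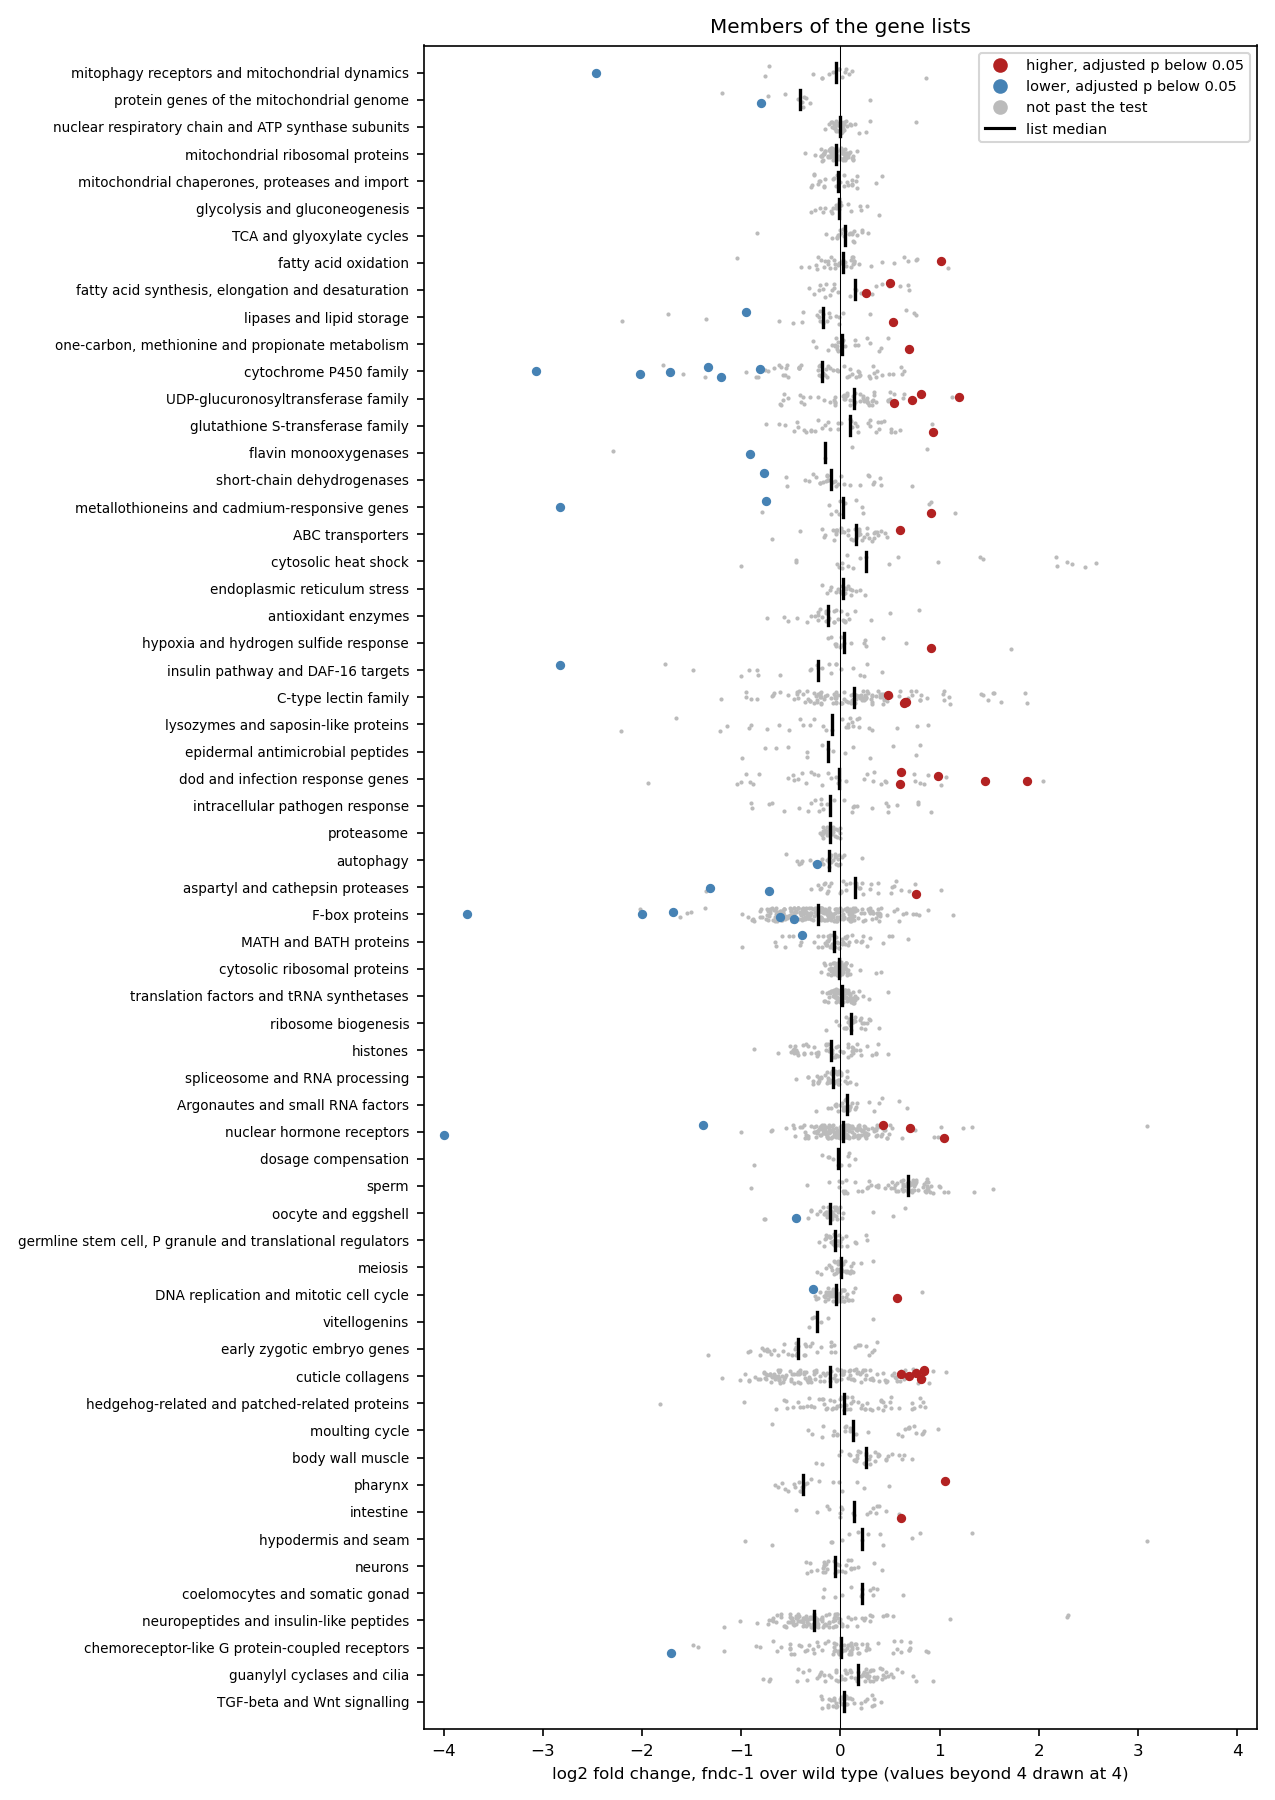
log2 fold change of fndc-1 over wild type for every tested member of each process list (points; values beyond 4 are drawn at 4), with the list median as a bar. Red points were higher and blue points lower in fndc-1 at an adjusted p below 0.05; the cytochrome P450 family has 6 members lower and 0 higher, the UDP-glucuronosyltransferase family 4 higher and 0 lower and the cuticle collagens 6 higher and 0 lower.

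Few genes of mitochondria, the organelle that FNDC-1 marks for removal, passed the test. Among mitophagy receptors and genes of mitochondrial fusion and fission, 0 of 16 tested members were higher and 1 lower in fndc-1 (median log2 -0.045, 6 at an unadjusted p under 0.05, 0 higher and 2 lower in the fit of 10 libraries), and the gene that fell was fndc-1 itself. pink-1, the kinase gene of the other main mitophagy pathway, had 72.0 ± 2.14 CPM in fndc-1 and 69.4 ± 2.02 CPM in wild type (log2 0.05, 95% interval -0.11 to 0.22, adjusted p = 0.858), and pdr-1, the worm Parkin gene, had 72.8 ± 4.62 CPM in fndc-1 and 76.5 ± 1.88 CPM in wild type (log2 -0.07, 95% interval -0.20 to 0.06, adjusted p = 0.702). dct-1, which encodes the worm counterpart of the receptors BNIP3 and NIX, had 17.2, 16.3, 14.1, 10.9 and 11.39 CPM in fndc-1 libraries, against 20.2, 26.8, 13.8, 38.1 and 19.8 CPM in wild-type libraries. The strains overlapped and the difference did not pass (log2 -0.76, adjusted p = 0.107). allo-1, the autophagy receptor gene for paternal organelles, did not pass over 15 libraries (log2 -0.19, adjusted p = 0.162) and was lower in the fit of 10 libraries (log2 -0.19, adjusted p = 0.0387).

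The respiratory chain and ATP synthase subunits encoded in the nucleus had 0 of 42 tested members past the threshold (median log2 -0.002, 2 at an unadjusted p under 0.05, 2 higher and 0 lower in the fit of 10 libraries). That median changes sign with the scaling (0.005 with RLE and 0.016 with upper-quartile factors). Mitochondrial ribosomal proteins had 0 of 71 tested members past the threshold (median log2 -0.041, 7 at an unadjusted p under 0.05, 0 in the fit of 10 libraries). Mitochondrial chaperones, proteases and import factors had 0 of 28 tested members past the threshold (median log2 -0.027, 4 at an unadjusted p under 0.05, 0 in the fit of 10 libraries). The chaperone gene hsp-6, the usual reporter of the mitochondrial unfolded protein response, had 612, 577, 602, 808 and 808 CPM in fndc-1 libraries, against 534, 638, 691, 587 and 696 CPM in wild-type libraries (log2 0.11, 95% interval -0.35 to 0.58, adjusted p = 0.901). Its sign turned without fndc-1 libraries 4 and 5, the highest (log2 -0.045). hsp-60 had 533 ± 115 CPM in fndc-1 and 417 ± 75.8 CPM in wild type (log2 0.36, 95% interval -0.05 to 0.76, adjusted p = 0.477), and the transcription factor gene of that response, atfs-1, had 93.4 ± 4.66 CPM in fndc-1 and 104.03 ± 4.92 CPM in wild type (log2 -0.15, 95% interval -0.27 to -0.04, adjusted p = 0.22).

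Most genes encoded in mitochondrial DNA had negative fold changes. In this list 0 of 12 tested members were higher and 1 lower in fndc-1 (median log2 -0.404, 8 at an unadjusted p under 0.05, 0 higher and 1 lower in the fit of 10 libraries). Of the 12 protein genes 11 had a log2 fold change under 0, and the median was -0.50 to -0.37 with each library left out. The call was atp-6, which encodes a subunit of ATP synthase. It had 49.4, 40.0, 46.5, 42.5 and 38.6 CPM in fndc-1 libraries, against 102.1, 59.2, 50.4, 103 and 63.0 CPM in wild-type libraries, with every wild-type library above every fndc-1 library (log2 -0.80, SE 0.183, adjusted p = 0.0383). atp-6 did not pass without any single fndc-1 library, or wild-type 1, 4 or 5, or double-mutant 1 or 5 (adjusted p up to 0.124). Summed over the 12 genes, libraries held 3190.3, 2489, 2705, 2725 and 2584 CPM in fndc-1 libraries, against 3452, 2974, 3183, 4297 and 3398 CPM in wild-type libraries, and the strains overlapped. Transcripts of mitochondrial DNA depend on how a library selects RNA, and whether libraries differed in that was not tested.

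Core energy metabolism showed few calls. Glycolysis and gluconeogenesis had 0 of 22 tested members past the threshold (median log2 -0.016, 5 at an unadjusted p under 0.05, 0 higher and 2 lower in the fit of 10 libraries). That median changes sign with upper-quartile factors (0.004) and without single libraries (-0.04 to 0.01). The summed level of the list was close between the strains, at most 5919.6 CPM in fndc-1 libraries and at least 5979.6 CPM in wild-type libraries. The pair that passed in the smaller fit are glyceraldehyde-3-phosphate dehydrogenase genes, gpd-1 (log2 -0.30, adjusted p = 0.0275) and gpd-4 (log2 -0.26, adjusted p = 0.0372), both lower. The TCA and glyoxylate cycles had 0 of 23 tested members past the threshold (median log2 0.049, 4 at an unadjusted p under 0.05, 1 higher and 0 lower in the fit of 10 libraries). In fatty acid oxidation 1 of 42 tested members was higher and 0 lower in fndc-1 (median log2 0.027, 10 at an unadjusted p under 0.05, 1 higher and 1 lower in the fit of 10 libraries). The rise was that of cpt-5, of the carnitine palmitoyltransferase family that moves fatty acids into mitochondria, with 15.8, 16.4, 17.4, 10.002 and 12.2 CPM in fndc-1 libraries, against 7.04, 7.49, 8.08, 5.49 and 7.50 CPM in wild-type libraries (log2 1.01, adjusted p = 0.0282). cpt-5 did not pass without fndc-1 1, 2 or 3, or wild-type 1, 2, 4 or 5 (adjusted p up to 0.114).

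In fatty acid synthesis, elongation and desaturation, 2 of 27 tested members were higher and 0 lower in fndc-1 (median log2 0.151, 7 at an unadjusted p under 0.05, 3 higher and 0 lower in the fit of 10 libraries). acs-5, an acyl-CoA synthetase gene, had 94.5 ± 2.12 CPM in fndc-1 and 66.6 ± 7.28 CPM in wild type (log2 0.51, adjusted p = 0.0169), and elo-1, an elongase gene of polyunsaturated fatty acid synthesis, had 419.9 ± 23.5 CPM in fndc-1 and 350.0 ± 15.9 CPM in wild type (log2 0.26, adjusted p = 0.043). acs-5 did not pass without fndc-1 3, or wild-type 2 or 4 (adjusted p up to 0.0539). elo-1 did not pass without fndc-1 1, 2, 3 or 4, or any single wild-type library, or double-mutant 1, 3, 4 or 5 (adjusted p up to 0.155). fasn-1, the fatty acid synthase gene, did not overlap between the strains, with 221, 222, 223, 204 and 235 CPM in fndc-1 libraries, against 132, 159, 162, 158 and 177 CPM in wild-type libraries. It did not pass over 15 libraries (log2 0.49, adjusted p = 0.339) but did over 10 (log2 0.49, adjusted p = 0.00329). Among lipases and lipid storage genes, 1 of 26 tested members was higher and 1 lower in fndc-1 (median log2 -0.177, 7 at an unadjusted p under 0.05, 1 higher and 1 lower in the fit of 10 libraries): asm-2, an acid sphingomyelinase gene, rose (log2 0.53, adjusted p = 0.041) and lipl-4, a lysosomal lipase gene, fell (log2 -0.95, adjusted p = 0.0441). asm-2 did not pass without fndc-1 1, 3 or 4, or any single wild-type library, or double-mutant 1 or 3 (adjusted p up to 0.114). lipl-4 did not pass without fndc-1 2, 3, 4 or 5, or wild-type 2, 4 or 5, or double-mutant 1, 3 or 5 (adjusted p up to 0.154).

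In one-carbon, methionine and propionate metabolism 1 of 23 tested members was higher and 0 lower in fndc-1 (median log2 0.019, 4 at an unadjusted p under 0.05, 2 higher and 0 lower in the fit of 10 libraries). cth-2, a cystathionine gamma-lyase gene of the pathway that makes cysteine, had 157, 165, 178.6, 151 and 157 CPM in fndc-1 libraries, against 117, 81.9, 133, 73.9 and 93.3 CPM in wild-type libraries (log2 0.70, SE 0.135, adjusted p = 0.0148). cth-2 did not pass without fndc-1 2 (adjusted p up to 0.05005). A pair of genes of the mitochondrial glycine cleavage system, picked after their values were seen, rose as well. gldc-1, its decarboxylase, had 184, 169.7, 182, 167 and 161 CPM in fndc-1 libraries, against 117, 105, 133, 87.4 and 125.7 CPM in wild-type libraries (log2 0.61, SE 0.112, adjusted p = 0.0101). gcst-1, its aminomethyltransferase, had 109 ± 3.30 CPM in fndc-1 and 88.5 ± 4.09 CPM in wild type (log2 0.30, adjusted p = 0.00993). gcst-1 did not pass without fndc-1 2 (adjusted p up to 0.0779). Without wild-type libraries 2 and 4 gldc-1 had an adjusted p of 0.0609.

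Among detoxification genes, the cytochrome P450 genes that passed were lower and the UDP-glucuronosyltransferase genes that passed were higher. Cytochrome P450 enzymes oxidize foreign compounds, sterols and fatty acids, and UDP-glucuronosyltransferases attach a sugar to make such products soluble. In the cytochrome P450 family 0 of 64 tested members were higher and 6 lower in fndc-1 (median log2 -0.188, 19 at an unadjusted p under 0.05, 1 higher and 6 lower in the fit of 10 libraries). cyp-25A3 had 2.77, 2.93, 3.50, 2.29 and 2.62 CPM in fndc-1 libraries, against 5.42, 7.80, 6.21, 7.63 and 5.401 CPM in wild-type libraries (log2 -1.203, SE 0.162, adjusted p = 0.000789). cyp-29A4 had 0.936, 0.722, 0.683, 0.387 and 0.563 CPM in fndc-1 libraries, against 2.22, 2.18, 1.49, 2.61 and 2.33 CPM in wild-type libraries (log2 -1.72, SE 0.245, adjusted p = 0.00136). For both genes every fndc-1 library lay below every wild-type library, and both calls held with each library left out.

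The other members that fell were cyp-25A1 (5.79 ± 1.56 CPM in fndc-1 and 14.6 ± 4.98 CPM in wild type, log2 -1.33, adjusted p = 0.0346), cyp-13A7 (1.24 ± 0.224 CPM in fndc-1 and 2.18 ± 0.319 CPM in wild type, log2 -0.81, adjusted p = 0.0243), cyp-34A2 (0.353 ± 0.124 CPM in fndc-1 and 1.44 ± 0.953 CPM in wild type, log2 -2.02, adjusted p = 0.043) and cyp-37B1 (0.356 ± 0.138 CPM in fndc-1 and 2.99 ± 2.96 CPM in wild type, log2 -3.06, adjusted p = 0.0479). In wild type cyp-37B1 was highest in libraries 2 and 4, at 4.81 and 7.29 CPM, and cyp-34A2 likewise, at 2.46 and 2.49 CPM. cyp-25A1 did not pass without any single fndc-1 library, or wild-type 1, 3 or 5, or double-mutant 1 or 5 (adjusted p up to 0.105). cyp-13A7 did not pass without fndc-1 1, 2, 3 or 5, or wild-type 2, 4 or 5 (adjusted p up to 0.0776). cyp-34A2 did not pass without any single fndc-1 library, or wild-type 1, 2 or 4, or double-mutant 1, 3 or 5 (adjusted p up to 0.129). cyp-37B1 did not pass without any single fndc-1 library, or wild-type 1, 2 or 4, or double-mutant 1, 3 or 5 (adjusted p up to 0.132). The last pair was named after its values were seen.

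In the UDP-glucuronosyltransferase family 4 of 62 tested members were higher and 0 lower in fndc-1 (median log2 0.141, 16 at an unadjusted p under 0.05, 5 higher and 0 lower in the fit of 10 libraries). ugt-47 had 44.6, 35.9, 41.6, 44.96 and 37.5 CPM in fndc-1 libraries, against 25.6, 20.9, 26.9, 20.1 and 22.6 CPM in wild-type libraries, with no overlap between the strains (log2 0.82, SE 0.145, adjusted p = 0.0082). ugt-60 had 10.5 ± 1.41 CPM in fndc-1 and 6.33 ± 1.25 CPM in wild type (log2 0.73, adjusted p = 0.0176), ugt-46 had 40.0 ± 2.58 CPM in fndc-1 and 27.5 ± 4.94 CPM in wild type (log2 0.54, adjusted p = 0.0187) and ugt-30 had 3.30 ± 1.38 CPM in fndc-1 and 1.44 ± 0.324 CPM in wild type (log2 1.19, adjusted p = 0.0479). ugt-60 did not pass without fndc-1 1, 2 or 3, or wild-type 2 (adjusted p up to 0.0693). ugt-46 did not pass without fndc-1 1, 2 or 3, or wild-type 2, 4 or 5 (adjusted p up to 0.0658). ugt-30 did not pass without fndc-1 1, 3, 4 or 5, or wild-type 1, 2, 4 or 5, or double-mutant 1, 3 or 5 (adjusted p up to 0.128). ugt-47 did not pass without wild-type libraries 2 and 4 (adjusted p = 0.0708). Glutathione S-transferases, which conjugate electrophiles to glutathione, had 1 of 39 tested members higher and 0 lower (median log2 0.097, 8 at an unadjusted p under 0.05, 2 higher and 1 lower in the fit of 10 libraries). gst-10 was the member that rose (log2 0.94, adjusted p = 0.0437). gst-10 did not pass without any single fndc-1 library, or wild-type 2, 4 or 5, or double-mutant 1 or 5 (adjusted p up to 0.121).

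Among the 5 flavin monooxygenases fmo-5 fell, with 6.04, 5.69, 5.09, 5.47 and 4.62 CPM in fndc-1 libraries, against 9.40, 11.09, 8.80, 11.8 and 9.54 CPM in wild-type libraries. Each fndc-1 library was lower than each wild-type library (log2 -0.91, SE 0.129, adjusted p = 0.0013), and the call held whichever library was left out. Short-chain dehydrogenases had 0 of 30 tested members higher and 1 lower (median log2 -0.099, 10 at an unadjusted p under 0.05, 0 higher and 2 lower in the fit of 10 libraries). The one that fell was dhs-2 (log2 -0.77, adjusted p = 0.0315). dhs-2 did not pass without fndc-1 2, 3, 4 or 5, or wild-type 1, 2, 4 or 5, or double-mutant 5 (adjusted p up to 0.108). ABC transporters, which export lipids and conjugated toxins, had 1 of 41 tested members higher and 0 lower (median log2 0.161, 3 at an unadjusted p under 0.05, 5 higher and 0 lower in the fit of 10 libraries). haf-9, a half-transporter gene of the lysosome-related gut granules, had 37.1 ± 3.92 CPM in fndc-1 and 24.5 ± 0.310 CPM in wild type (log2 0.60, adjusted p = 0.0426). haf-9 did not pass without fndc-1 1, 2, 3 or 4, or any single wild-type library, or double-mutant 3 (adjusted p up to 0.102). The additional members in the smaller fit were mrp-1, mrp-5, haf-4 and pgp-2.

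Both metallothionein genes fell. Metallothioneins are small cysteine-rich proteins that bind zinc, copper and cadmium, and mtl-1 is also a standard target of the transcription factor DAF-16. mtl-1 had 4.27, 5.27, 4.201, 4.24 and 3.82 CPM in fndc-1 libraries, against 28.4, 38.7, 15.1, 52.3 and 20.6 CPM in wild-type libraries, so that every wild-type library was above every fndc-1 library (log2 -2.83, SE 0.274, adjusted p = 2.45e-05). Within wild type it was highest in libraries 2 and 4. mtl-2, the more abundant of the pair, had 154, 158, 152, 165 and 143 CPM in fndc-1 libraries, against 299, 266, 210.2, 300.2 and 224 CPM in wild-type libraries (log2 -0.75, SE 0.139, adjusted p = 0.0107). mtl-2 did not pass without fndc-1 2 (adjusted p up to 0.054). cdr-7, of the cadmium-responsive family, went the other way with 4.70, 4.83, 4.62, 4.46 and 4.77 CPM in fndc-1 libraries, against 2.77, 2.55, 2.98, 2.05 and 2.101 CPM in wild-type libraries (log2 0.91, SE 0.159, adjusted p = 0.0072). Without wild-type libraries 2 and 4 cdr-7 did not pass (adjusted p = 0.0744). Across the 16 tested members of the metallothionein and cadmium-responsive list, 1 was higher and 2 lower.

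**Figure D3:**
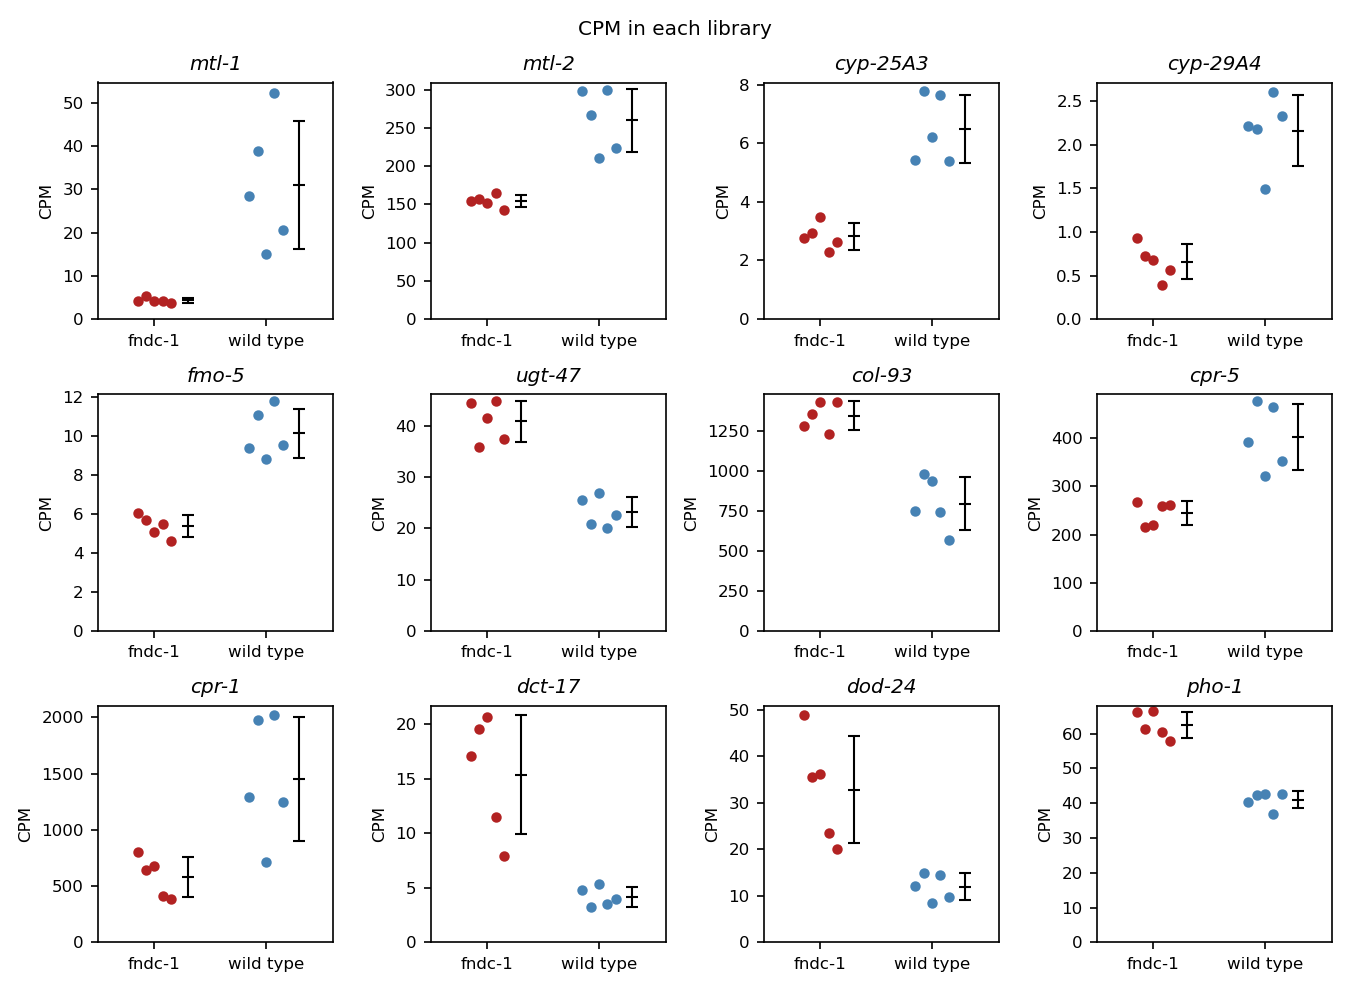
CPM in each fndc-1 library (red, left) and wild-type library (blue, right), with the mean and SD beside each group, for 12 genes of metal handling (mtl-1, mtl-2), detoxification (cyp-25A3, cyp-29A4, fmo-5, ugt-47), cuticle (col-93), proteolysis (cpr-5, cpr-1), infection response (dct-17, dod-24) and the intestine (pho-1). The strains do not overlap for the genes shown other than cpr-1.

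Stress pathways gave 0 calls over 15 libraries in the lists of cytosolic heat shock, endoplasmic reticulum stress and antioxidant enzymes. In the heat shock list 0 of 23 tested members passed (median log2 0.262, 7 at an unadjusted p under 0.05, 3 higher and 1 lower in the fit of 10 libraries). The small heat shock protein genes of the hsp-16 family, which are induced by misfolded protein in the cytosol, had the largest values. hsp-16.11 had 5.67, 5.57, 4.97, 1.21 and 2.44 CPM in fndc-1 libraries, against 1.13, 0.501, 0.529, 0.949 and 0.230 CPM in wild-type libraries, with no overlap (log2 2.57, adjusted p = 0.0592 over 15 libraries and log2 2.57, adjusted p = 0.0217 over 10). hsp-16.48 had 3.86, 4.65, 6.06, 2.44 and 1.75 CPM in fndc-1 libraries, against 0.944, 0.261, 1.30, 0.447 and 0.887 CPM in wild-type libraries (log2 2.28, adjusted p = 0.116 over 15 libraries and log2 2.27, adjusted p = 0.0234 over 10). hsp-16.49 gave log2 2.17, adjusted p = 0.0346 over 10 libraries. The hsp-16 genes come as near-identical copies, which makes single levels uncertain. The small heat shock protein gene sip-1 was lower in the fit of 10 libraries (log2 -0.45, adjusted p = 0.00648), at 1295 ± 87.6 CPM in fndc-1 and 1761 ± 105 CPM in wild type. Summed over the list, libraries held 10004, 9791, 10129, 12066 and 12415 CPM in fndc-1 libraries, against 10651, 10360.4, 11949, 9497 and 11504 CPM in wild-type libraries, and the strains overlapped. The score of the list, which gives each member the same weight, was 0.277, 0.307, 0.363, 0.069 and 0.038 in fndc-1 libraries, against -0.142, -0.26, -0.115, -0.325 and -0.213 in wild-type libraries, with no overlap.

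Endoplasmic reticulum stress genes had 0 of 21 tested members past the threshold (median log2 0.029, 2 at an unadjusted p under 0.05, 1 higher and 0 lower in the fit of 10 libraries). Antioxidant enzymes such as superoxide dismutases and catalases had 0 of 35 tested members past the threshold (median log2 -0.123, 5 at an unadjusted p under 0.05, 0 in the fit of 10 libraries). sod-3, a mitochondrial superoxide dismutase gene and DAF-16 target, had 2.46 ± 0.470 CPM in fndc-1 and 2.46 ± 0.986 CPM in wild type (log2 0.00, 95% interval -0.52 to 0.52, adjusted p = 0.999). The insulin pathway and its DAF-16 targets had 0 of 23 tested members higher and 1 lower (median log2 -0.222, 9 at an unadjusted p under 0.05, 0 higher and 1 lower in the fit of 10 libraries). The member that fell was mtl-1. Hypoxia and hydrogen sulfide response genes, the targets of the oxygen-regulated factor HIF-1 among them, had 1 of 17 tested members higher and 0 lower (median log2 0.032, 4 at an unadjusted p under 0.05, 1 higher and 0 lower in the fit of 10 libraries). Their summed level separated narrowly, at least 752.4 CPM in fndc-1 libraries and at most 749.2 CPM in wild-type libraries. Their score overlapped, with -0.077 to 0.246 in fndc-1 libraries and -0.172 to 0.025 in wild-type libraries. phy-2, which encodes a prolyl 4-hydroxylase subunit that modifies collagen, rose, with 17.7, 20.9, 23.1, 12.7 and 13.7 CPM in fndc-1 libraries, against 10.4, 7.19, 11.5, 7.39 and 10.3 CPM in wild-type libraries (log2 0.91, adjusted p = 0.0211). phy-2 did not pass without fndc-1 1, 2 or 3, or wild-type 2 or 4 (adjusted p up to 0.0664).

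Genes of the response to infection that passed were all higher. In the list of dod and infection response genes 5 of 43 tested members were higher and 0 lower in fndc-1 (median log2 -0.013, 12 at an unadjusted p under 0.05, 5 higher and 0 lower in the fit of 10 libraries). That median changes sign with upper-quartile factors (0.006) and without single libraries (-0.07 to 0.24), so the list as a whole had no stable direction. Of the members that passed, dct-17 and cld-9 lie in the run of raised neighbours on chromosome V given above, and dod-24 in one on chromosome IV. dct-17 had 17.1, 19.6, 20.6, 11.5 and 7.94 CPM in fndc-1 libraries, against 4.80, 3.202, 5.36, 3.48 and 3.96 CPM in wild-type libraries (log2 1.88, SE 0.231, adjusted p = 0.00032). dod-24, a gene often used to read out innate immunity in the intestine, had 48.8, 35.6, 36.2, 23.5 and 20.1 CPM in fndc-1 libraries, against 12.2, 14.9, 8.52, 14.6 and 9.69 CPM in wild-type libraries (log2 1.46, SE 0.254, adjusted p = 0.0072). For both genes the strains did not overlap, and fndc-1 libraries 4 and 5 were the lowest of their strain. The infection response gene irg-4 had 5.96, 8.42, 8.22, 9.65 and 8.19 CPM in fndc-1 libraries, against 6.08, 3.59, 3.66, 3.63 and 3.41 CPM in wild-type libraries, and wild-type library 1 overlapped the mutant (log2 0.99, adjusted p = 0.0176).

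cld-9, which encodes a CUB-like domain protein, had 10.4 ± 1.69 CPM in fndc-1 and 6.89 ± 0.866 CPM in wild type (log2 0.60, adjusted p = 0.017), and dod-19, named after its values were seen, had 171 ± 36.04 CPM in fndc-1 and 111.9 ± 10.7 CPM in wild type (log2 0.61, adjusted p = 0.0324). irg-4 did not pass without wild-type 2 or 4 (adjusted p up to 0.0576). cld-9 did not pass without fndc-1 1, 2 or 3, or wild-type 5 (adjusted p up to 0.0693). dod-19 did not pass without fndc-1 1, 2 or 3, or wild-type 1, 2, 4 or 5, or double-mutant 5 (adjusted p up to 0.121). C-type lectins are secreted carbohydrate-binding proteins that include many infection-induced genes. In that family 4 of 129 tested members were higher and 0 lower in fndc-1 (median log2 0.142, 25 at an unadjusted p under 0.05, 4 higher and 0 lower in the fit of 10 libraries). clec-51 had 18.02, 16.6, 17.01, 19.1 and 18.2 CPM in fndc-1 libraries, against 12.2, 11.06, 12.9, 10.8 and 10.2 CPM in wild-type libraries (log2 0.64, SE 0.115, adjusted p = 0.00879). The others were clec-209 (log2 0.65, adjusted p = 0.0238), clec-53 (log2 0.67, adjusted p = 0.0426) and clec-173 (log2 0.48, adjusted p = 0.0326). clec-209 did not pass without fndc-1 1, 2 or 3, or wild-type 2, 4 or 5 (adjusted p up to 0.118). clec-53 did not pass without any single fndc-1 library, or any single wild-type library, or double-mutant 1, 4 or 5 (adjusted p up to 0.154). clec-173 did not pass without fndc-1 1, 2 or 3, or any single wild-type library, or double-mutant 3 (adjusted p up to 0.137). clec-51 did not pass without wild-type libraries 2 and 4 (adjusted p = 0.0817).

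Lysozymes and saposin-like proteins had 0 of 31 tested members past the threshold (median log2 -0.084, 10 at an unadjusted p under 0.05, 0 in the fit of 10 libraries). Antimicrobial peptides of the epidermis had 0 of 15 tested members past the threshold (median log2 -0.124, 3 at an unadjusted p under 0.05, 1 higher and 0 lower in the fit of 10 libraries). The peptide gene nlp-24 was higher in the smaller fit (log2 0.76, adjusted p = 0.00378). The intracellular pathogen response, induced by microsporidia and virus, had 0 of 28 tested members past the threshold (median log2 -0.1, 2 at an unadjusted p under 0.05, 0 in the fit of 10 libraries).

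Autophagy and proteasome genes had medians under 0, with few single calls. In the autophagy list 0 of 30 tested members were higher and 1 lower in fndc-1 (median log2 -0.111, 5 at an unadjusted p under 0.05, 0 higher and 4 lower in the fit of 10 libraries), and 3 of the 30 had a log2 fold change above 0. atg-3, whose product helps join LC3 family proteins to lipid, had 44.7, 46.0, 43.9, 49.1 and 49.7 CPM in fndc-1 libraries, against 55.2, 55.6, 54.1, 55.3 and 55.1 CPM in wild-type libraries, with no overlap (log2 -0.24, SE 0.0525, adjusted p = 0.0302). atg-3 did not pass without fndc-1 1, 2 or 3, or wild-type 1, 2, 4 or 5 (adjusted p up to 0.105). In the smaller fit epg-6 (log2 -0.27, adjusted p = 0.00128), atg-9 (log2 -0.31, adjusted p = 0.00927) and hlh-30, the worm counterpart of the lysosomal regulator TFEB (log2 -0.39, adjusted p = 0.0307), were lower too. The proteasome had 0 of 33 tested members past the threshold (median log2 -0.108, 9 at an unadjusted p under 0.05, 0 in the fit of 10 libraries). Of its 33 genes 1 had a log2 fold change above 0, and the range was -0.21 to 0.00, from pas-5 to rpn-7. The score of the list was -0.094, -0.119, -0.116, 0.013 and 0.053 in fndc-1 libraries, against 0.039, 0.048, 0.128, -0.009 and 0.058 in wild-type libraries. The strains overlapped, with fndc-1 libraries 4 and 5 in the range of wild type.

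Among aspartyl, cathepsin and related proteases 1 of 41 tested members was higher and 2 lower in fndc-1 (median log2 0.145, 6 at an unadjusted p under 0.05, 1 higher and 2 lower in the fit of 10 libraries). cpr-5, a cathepsin B-like gene, fell, with 268, 215, 220.3, 260.1 and 261 CPM in fndc-1 libraries, against 392, 478, 321, 465 and 353 CPM in wild-type libraries (log2 -0.71, SE 0.117, adjusted p = 0.00432). cpr-1, another cathepsin B-like gene, had 802, 642, 680.4, 411 and 389 CPM in fndc-1 libraries, against 1295, 1977, 712, 2021 and 1245 CPM in wild-type libraries (log2 -1.31, adjusted p = 0.0217), and its wild-type library 3 lay within the range of fndc-1. cpr-1 did not pass without fndc-1 2, 4 or 5, or wild-type 2 or 4 (adjusted p up to 0.0664). nep-22, a neprilysin-type metallopeptidase gene, rose, with 62.4, 53.4, 59.3, 73.9 and 58.6 CPM in fndc-1 libraries, against 32.3, 40.5, 38.4, 34.6 and 35.8 CPM in wild-type libraries (log2 0.76, SE 0.114, adjusted p = 0.00202).

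F-box proteins choose the targets of an SCF ubiquitin ligase, and the family is very large in C. elegans. Here 0 of 255 tested members were higher and 5 lower in fndc-1 (median log2 -0.229, 37 at an unadjusted p under 0.05, 1 higher and 5 lower in the fit of 10 libraries), and 67 of the 255 had a log2 fold change above 0. fbxa-192 had 0.468, 0.441, 0.455, 0.650 and 0.466 CPM in fndc-1 libraries, against 6.96, 6.10, 6.59, 7.03 and 7.19 CPM in wild-type libraries, so that the strains were far apart (log2 -3.76, SE 0.145, adjusted p = 8.34e-10). The double mutant averaged 8.93 ± 1.22 CPM. fbxa-111, a gene with few counts, had 0.0782 ± 0.0312 CPM in fndc-1 and 0.319 ± 0.113 CPM in wild type (log2 -1.997, adjusted p = 0.00309). fbxa-108 (log2 -0.61, adjusted p = 0.0272), fbxa-24 (log2 -1.68, adjusted p = 0.0284) and fbxa-106, named after its values were seen (log2 -0.46, adjusted p = 0.0404), were lower too. fbxa-108 did not pass without fndc-1 1, 2, 3 or 5, or wild-type 2 or 4 (adjusted p up to 0.114). fbxa-24 did not pass without fndc-1 1, 2, 3 or 5, or wild-type 1, 2 or 4 (adjusted p up to 0.103). fbxa-106 did not pass without fndc-1 1, 2, 3 or 5, or wild-type 2, 3, 4 or 5, or double-mutant 1 or 5 (adjusted p up to 0.159). MATH and BATH proteins, adaptors of another ubiquitin ligase, had 0 of 58 tested members higher and 1 lower (median log2 -0.068, 9 at an unadjusted p under 0.05, 1 higher and 1 lower in the fit of 10 libraries). The call was bath-1 (log2 -0.39, adjusted p = 0.0302). bath-1 did not pass without fndc-1 1, 2, 3 or 5, or wild-type 2, 4 or 5, or double-mutant 5 (adjusted p up to 0.096). F-box genes have many similar copies, so counts of single members are uncertain.

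Lists of the gene expression machinery had 0 calls over 15 libraries. Cytosolic ribosomal proteins had 0 of 82 tested members past the threshold (median log2 -0.011, 1 at an unadjusted p under 0.05, 0 in the fit of 10 libraries). That median changes sign with upper-quartile factors (0.007). Translation factors and tRNA synthetases had 0 of 72 tested members past the threshold (median log2 0.02, 3 at an unadjusted p under 0.05, 1 higher and 0 lower in the fit of 10 libraries). Ribosome biogenesis genes had 0 of 30 tested members past the threshold (median log2 0.112, 7 at an unadjusted p under 0.05, 3 higher and 0 lower in the fit of 10 libraries). Of these 30, 27 had a log2 fold change above 0, and those past the smaller fit were rpoa-2, nol-2 and nol-56. The score of this list was 0.004, -0.03, -0.031, 0.148 and 0.233 in fndc-1 libraries, against -0.174, -0.04, 0.017, -0.068 and -0.059 in wild-type libraries, and the strains overlapped. Histones had 0 of 60 tested members past the threshold (median log2 -0.093, 5 at an unadjusted p under 0.05, 0 in the fit of 10 libraries). Spliceosome and RNA processing genes had 0 of 46 tested members past the threshold (median log2 -0.073, 7 at an unadjusted p under 0.05, 0 in the fit of 10 libraries). Argonautes and small RNA factors had 0 of 33 tested members past the threshold (median log2 0.071, 1 at an unadjusted p under 0.05, 0 higher and 1 lower in the fit of 10 libraries). Dosage compensation genes had 0 of 11 tested members past the threshold (median log2 -0.023, 1 at an unadjusted p under 0.05, 0 higher and 1 lower in the fit of 10 libraries).

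Nuclear hormone receptors are transcription factors switched by small lipophilic ligands, and the worm has a greatly expanded set of them. Here 3 of 189 tested members were higher and 2 lower in fndc-1 (median log2 0.03, 17 at an unadjusted p under 0.05, 3 higher and 2 lower in the fit of 10 libraries). Besides nhr-131 and nhr-106, nhr-31, known for its role in the excretory cell, had 36.1, 33.7, 33.96, 30.6 and 26.1 CPM in fndc-1 libraries, against 19.2, 18.8, 20.8, 17.3 and 22.3 CPM in wild-type libraries (log2 0.71, adjusted p = 0.0196). nhr-114, which acts in the response to diet, had 160.3 ± 12.2 CPM in fndc-1 and 118.99 ± 11.5 CPM in wild type (log2 0.43, adjusted p = 0.0403). nhr-236, with few counts, had 0.159 ± 0.0454 CPM in fndc-1 and 0.421 ± 0.0607 CPM in wild type (log2 -1.39, adjusted p = 0.0126). nhr-31 did not pass without fndc-1 1 or 3, or wild-type 1, 2 or 4 (adjusted p up to 0.0653). nhr-114 did not pass without fndc-1 1, 2, 3 or 4, or wild-type 1, 2, 4 or 5, or double-mutant 3 (adjusted p up to 0.126). nhr-236 did not pass without wild-type libraries 2 and 4 (adjusted p = 0.0708) or without fndc-1 libraries 4 and 5 (adjusted p = 0.0542). The transcription factor gene tbx-2, needed for pharyngeal muscle, had 18.6, 16.7, 17.03, 12.29 and 16.1 CPM in fndc-1 libraries, against 9.17, 5.82, 7.36, 7.74 and 10.1 CPM in wild-type libraries, with no overlap (log2 1.01, SE 0.161, adjusted p = 0.00357).

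Sperm transcripts differed between libraries of the same strain. Major sperm protein and other sperm genes summed to 523, 359, 396, 1052 and 612 CPM in fndc-1 libraries, against 248, 749, 276, 628 and 266.7 CPM in wild-type libraries. In wild type libraries 2 and 4 were above the other 3, and in fndc-1 library 4 was the highest, so the strains overlapped. The sperm list had 0 of 79 tested members past the threshold (median log2 0.679, 2 at an unadjusted p under 0.05, 0 in the fit of 10 libraries). Its median was 0.17 without fndc-1 library 4 and 1.22 without wild-type library 2. Hermaphrodites make their sperm before they turn to oocytes. With the sperm score as a covariate 632 genes passed, 262 of them among the 281. Of the called genes named, asm-2, cpg-8, elo-1, haf-9, mlc-5, nspc-4, psf-3 and ugt-30 did not pass in that fit, with adjusted p-values between 0.0535 for asm-2 and 0.111 for ugt-30.

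Oocyte and eggshell genes had 0 of 40 tested members higher and 1 lower (median log2 -0.107, 10 at an unadjusted p under 0.05, 2 higher and 2 lower in the fit of 10 libraries). cpg-8, a chondroitin proteoglycan gene of the eggshell, had 71.8 ± 3.89 CPM in fndc-1 and 98.03 ± 8.98 CPM in wild type (log2 -0.45, adjusted p = 0.0424). cpg-8 did not pass without any single fndc-1 library, or any single wild-type library, or double-mutant 1 or 5 (adjusted p up to 0.122). Genes first transcribed in the early embryo had 0 of 43 tested members past the threshold (median log2 -0.428, 5 at an unadjusted p under 0.05, 0 in the fit of 10 libraries). Their summed level was 269.6, 282, 289.9, 260.0 and 280.1 CPM in fndc-1 libraries, against 368, 258, 326, 271 and 304 CPM in wild-type libraries, with wild-type library 1 the highest. The yolk protein genes, or vitellogenins, had 0 of 6 tested members past the threshold (median log2 -0.231, 0 at an unadjusted p under 0.05, 0 in the fit of 10 libraries). Together they took 61029.6, 58860.5, 79234, 79757 and 86401 CPM in fndc-1 libraries, against 67972, 84659, 94142, 89851 and 94337 CPM in wild-type libraries, and the strains overlapped.

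Germline stem cell, P granule and translational regulators had 0 of 32 tested members past the threshold (median log2 -0.054, 3 at an unadjusted p under 0.05, 0 in the fit of 10 libraries). Meiosis genes had 0 of 38 tested members past the threshold (median log2 0.006, 2 at an unadjusted p under 0.05, 0 in the fit of 10 libraries). DNA replication and cell cycle genes had 1 of 57 tested members higher and 1 lower (median log2 -0.04, 6 at an unadjusted p under 0.05, 1 higher and 1 lower in the fit of 10 libraries). The calls were psf-2, in the segment of chromosome I, and psf-3, another GINS subunit gene, with 38.5 ± 1.29 CPM in fndc-1 and 46.6 ± 2.61 CPM in wild type (log2 -0.27, adjusted p = 0.0403). psf-3 did not pass without any single fndc-1 library, or any single wild-type library, or double-mutant 5 (adjusted p up to 0.137). In the plot of marker scores, the sperm panel shows both strains spread over most of the axis.

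**Figure D4:**
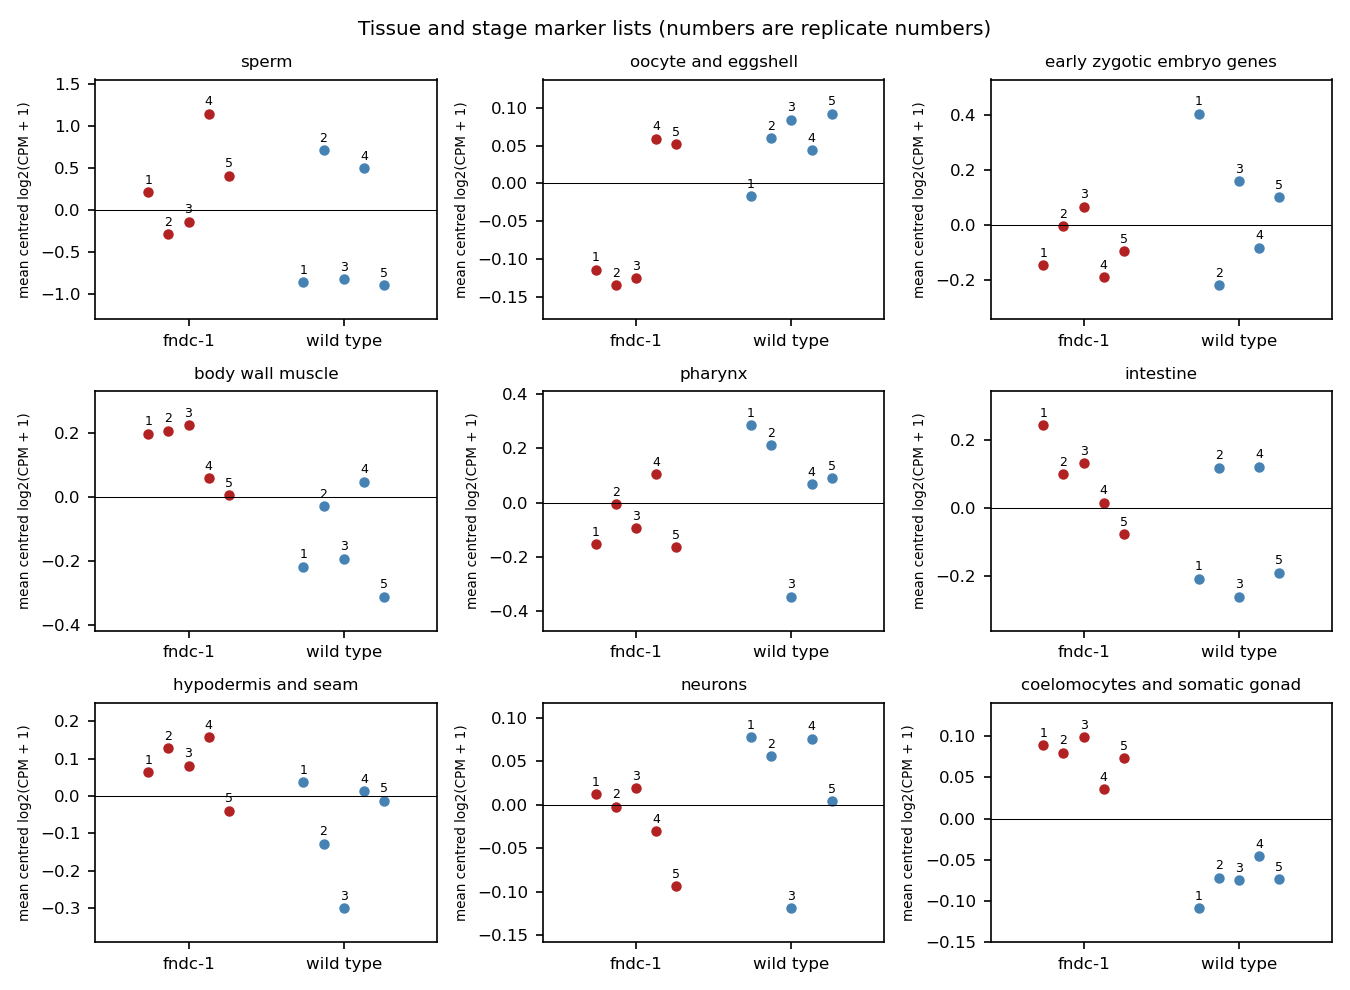
Score of 9 marker lists (mean of the members' log2(CPM + 1), centred on the mean over the 10 libraries) in each fndc-1 library (red, left) and wild-type library (blue, right); digits are replicate numbers. The sperm score is high in wild-type libraries 2 and 4 and fndc-1 library 4. The coelomocyte and somatic gonad score does not overlap between the strains, though the summed CPM of that list does.

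Cuticle collagens form the extracellular coat of the worm and are expressed in waves with each moult. The collagen list had 6 of 148 tested members higher and 0 lower (median log2 -0.1, 18 at an unadjusted p under 0.05, 10 higher and 0 lower in the fit of 10 libraries). col-93 had 1280.2, 1357, 1433, 1229.5 and 1431 CPM in fndc-1 libraries, against 748, 982, 936, 746 and 566 CPM in wild-type libraries (log2 0.76, SE 0.149, adjusted p = 0.0161). col-103 had 263, 289, 304, 276 and 348 CPM in fndc-1 libraries, against 182, 179.3, 216, 134 and 113 CPM in wild-type libraries (log2 0.84, SE 0.154, adjusted p = 0.00947). Every fndc-1 library of both genes was above every wild-type library. col-98 (log2 0.81, adjusted p = 0.0169), col-160 (log2 0.69, adjusted p = 0.0192), col-80 (log2 0.62, adjusted p = 0.0298) and col-179, named after its values were seen (log2 0.84, adjusted p = 0.0224), rose as well. col-93 did not pass without fndc-1 2, or wild-type 4 (adjusted p up to 0.0647). col-98 did not pass without fndc-1 2, or wild-type 4 (adjusted p up to 0.059). col-160 did not pass without fndc-1 2 or 3, or wild-type 1 or 4 (adjusted p up to 0.0644). col-80 did not pass without fndc-1 1, 2, 3 or 5, or wild-type 1, 4 or 5 (adjusted p up to 0.113). col-179 did not pass without fndc-1 1, 2 or 3, or wild-type 4 or 5 (adjusted p up to 0.104). The median of the list was -0.72 without fndc-1 library 4 and 0.12 without wild-type library 2. Summed over the list, which weights the abundant collagens, libraries held 23308, 24429.8, 25267, 22478 and 24451 CPM in fndc-1 libraries, against 18620.4, 21981, 18488, 17204 and 13403 CPM in wild-type libraries, and every fndc-1 library was above every wild-type library. Without wild-type libraries 2 and 4 col-103 did not pass (adjusted p = 0.0731). Close copies among the collagen genes make single levels uncertain.

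Hedgehog-related and patched-related proteins, which take part in moulting, had 0 of 65 tested members past the threshold (median log2 0.041, 8 at an unadjusted p under 0.05, 3 higher and 0 lower in the fit of 10 libraries). Other genes of the moulting cycle had 0 of 28 tested members past the threshold (median log2 0.128, 6 at an unadjusted p under 0.05, 1 higher and 0 lower in the fit of 10 libraries). Hypodermis and seam markers had 0 of 15 tested members past the threshold (median log2 0.219, 4 at an unadjusted p under 0.05, 0 in the fit of 10 libraries). Coelomocyte and somatic gonad markers had 0 of 13 tested members past the threshold (median log2 0.222, 1 at an unadjusted p under 0.05, 1 higher and 1 lower in the fit of 10 libraries). Their score was 0.089, 0.08, 0.099, 0.036 and 0.073 in fndc-1 libraries, against -0.109, -0.072, -0.075, -0.046 and -0.074 in wild-type libraries, so the strains did not overlap. Their summed level did overlap, with 691.0 to 804.2 CPM in fndc-1 libraries and 568.7 to 812.2 CPM in wild-type libraries.

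Most body wall muscle genes had small positive fold changes, none past the threshold over 15 libraries. The muscle list had 0 of 33 tested members past the threshold (median log2 0.26, 9 at an unadjusted p under 0.05, 7 higher and 0 lower in the fit of 10 libraries). Over all tested genes 7604 of 15032 had a log2 fold change above 0, and 4% did not overlap with fndc-1 higher. Of the 33, 30 had a log2 fold change above 0 and 7 did not overlap between the strains, all with fndc-1 higher. Those 7 were the genes that passed in the smaller fit. They encode parts of the attachment of muscle to its surroundings (perlecan unc-52, integrin pat-2, kindlin unc-112, vinculin deb-1, and dim-1) and of the thin filament (troponins mup-2 and tni-1). unc-112 had 59.1, 61.2, 60.9, 49.97 and 49.9 CPM in fndc-1 libraries, against 42.9, 34.4, 43.6, 39.4 and 44.0 CPM in wild-type libraries (log2 0.46, adjusted p = 0.0796 over 15 libraries and log2 0.46, adjusted p = 0.0284 over 10). mup-2 had 213, 194, 185, 205 and 182 CPM in fndc-1 libraries, against 123, 152, 118.7, 152 and 101.6 CPM in wild-type libraries (log2 0.60, adjusted p = 0.0826 over 15 and log2 0.59, adjusted p = 0.00896 over 10). Of the myosin heavy chain genes, unc-54 had 413 ± 87.3 CPM in fndc-1 and 491 ± 127 CPM in wild type (log2 -0.25, 95% interval -0.97 to 0.47, adjusted p = 0.844) and myo-3 had 61.1 ± 3.19 CPM in fndc-1 and 53.1 ± 7.57 CPM in wild type (log2 0.20, 95% interval -0.34 to 0.74, adjusted p = 0.829). The score of the list was 0.199, 0.208, 0.225, 0.059 and 0.006 in fndc-1 libraries, against -0.217, -0.028, -0.192, 0.049 and -0.31 in wild-type libraries, and wild-type library 4, one of the libraries with more sperm transcripts, overlapped the mutant.

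The genes ifb-1, nid-1, fbl-1 and unc-23 were picked because they passed over 15 libraries and stand for no list. Other genes of attachment did not pass there, among them unc-52 (adjusted p = 0.481), pat-2 (adjusted p = 0.261) and let-805 (adjusted p = 0.492). ifb-1, an intermediate filament gene of the epidermal attachments, had 204, 202, 206, 141 and 141 CPM in fndc-1 libraries, against 116, 102.5, 111.8, 89.03 and 107 CPM in wild-type libraries (log2 0.77, SE 0.134, adjusted p = 0.0072). nid-1, the nidogen gene of basement membranes, had 107 ± 12.5 CPM in fndc-1 and 63.4 ± 5.90 CPM in wild type (log2 0.76, adjusted p = 0.00947). fbl-1, the fibulin gene, had 18.7 ± 0.902 CPM in fndc-1 and 12.2 ± 0.751 CPM in wild type (log2 0.61, adjusted p = 0.00867), and unc-23, a BAG family gene needed for muscle attachment, had 23.6 ± 2.97 CPM in fndc-1 and 14.6 ± 1.07 CPM in wild type (log2 0.69, adjusted p = 0.00411). No fndc-1 library of these 4 genes overlapped wild type. Without wild-type libraries 2 and 4 ifb-1, nid-1 and fbl-1 did not pass (adjusted p = 0.0831, 0.0835 and 0.0617).

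Pharynx markers had 1 of 23 tested members higher and 0 lower (median log2 -0.375, 2 at an unadjusted p under 0.05, 1 higher and 0 lower in the fit of 10 libraries). The one that rose was pqn-75, a gene expressed in pharyngeal glands, with 5.80, 7.66, 7.35, 7.96 and 7.90 CPM in fndc-1 libraries, against 4.08, 3.03, 4.51, 2.401 and 3.63 CPM in wild-type libraries (log2 1.05, SE 0.166, adjusted p = 0.00313). Intestine markers had 1 of 19 tested members higher and 0 lower (median log2 0.142, 6 at an unadjusted p under 0.05, 3 higher and 0 lower in the fit of 10 libraries). pho-1, the intestinal acid phosphatase gene, had 66.4, 61.3, 66.5, 60.4 and 58.0 CPM in fndc-1 libraries, against 40.4, 42.4, 42.8, 36.9 and 42.7 CPM in wild-type libraries, with no overlap and a small spread (log2 0.61, SE 0.0641, adjusted p = 6.66e-05). pho-7, of the same family and picked after its values were seen, had 6.38 ± 0.400 CPM in fndc-1 and 3.70 ± 0.795 CPM in wild type (log2 0.79, adjusted p = 0.00936). pho-7 did not pass without wild-type libraries 2 and 4 (adjusted p = 0.0851). Summed over the intestine list, libraries held 6832, 6119.8, 6407, 5672 and 5386 CPM in fndc-1 libraries, against 5064, 7329.8, 4587, 7069 and 5069.6 CPM in wild-type libraries.

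Of the neuronal and signalling lists, a single gene passed over 15 libraries. Neuron markers had 0 of 30 tested members past the threshold (median log2 -0.058, 1 at an unadjusted p under 0.05, 0 higher and 1 lower in the fit of 10 libraries). Neuropeptides and insulin-like peptides had 0 of 118 tested members past the threshold (median log2 -0.263, 18 at an unadjusted p under 0.05, 0 in the fit of 10 libraries). Guanylyl cyclase and cilium genes had 0 of 65 tested members past the threshold (median log2 0.173, 5 at an unadjusted p under 0.05, 2 higher and 0 lower in the fit of 10 libraries). TGF-beta and Wnt signalling had 0 of 37 tested members past the threshold (median log2 0.037, 2 at an unadjusted p under 0.05, 0 in the fit of 10 libraries). Chemoreceptor-like receptors had 0 of 76 tested members higher and 1 lower (median log2 0.007, 13 at an unadjusted p under 0.05, 1 higher and 1 lower in the fit of 10 libraries). Of the 1329 chemoreceptor-like genes in the table only these 76 had enough counts to be tested. srx-12 was the call, at 0.0939 ± 0.0539 CPM in fndc-1 and 0.312 ± 0.0483 CPM in wild type (log2 -1.71, adjusted p = 0.0391). srx-12 did not pass without fndc-1 1, 3, 4 or 5, or any single wild-type library, or double-mutant 3 or 5 (adjusted p up to 0.114).

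A few further genes were named for their size of change or abundance. snt-2, a synaptotagmin gene, rose: 34.6, 37.5, 35.8, 36.2 and 41.4 CPM in fndc-1 libraries, against 17.2, 17.9, 19.5, 18.3 and 19.7 CPM in wild-type libraries (log2 1.000, SE 0.119, adjusted p = 0.00024). nspc-4, of a nematode-specific peptide family, was lower (log2 -0.76, adjusted p = 0.0473). The myosin light chain gene mlc-5 (log2 -0.23, adjusted p = 0.0404) and slrp-1 (log2 -0.26, adjusted p = 0.0224) were abundant genes with small falls. nspc-4 did not pass without any single fndc-1 library, or wild-type 1, 3 or 5, or double-mutant 1 or 5 (adjusted p up to 0.159). mlc-5 did not pass without any single fndc-1 library, or any single wild-type library, or double-mutant 1, 4 or 5 (adjusted p up to 0.159). slrp-1 did not pass without fndc-1 1, 2, 4 or 5, or wild-type 1, 2, 4 or 5, or double-mutant 5 (adjusted p up to 0.156).

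A few single genes of varied function, picked because they passed, are given for their values and stand for no list. swt-3, a sugar transporter gene of the SWEET family, had 13.4, 11.89, 13.4, 13.3 and 11.3 CPM in fndc-1 libraries, against 6.47, 8.04, 6.82, 8.86 and 5.14 CPM in wild-type libraries (log2 0.84, SE 0.131, adjusted p = 0.00281). fpn-1.1, of the ferroportin family of iron exporters, had 20.7 ± 0.844 CPM in fndc-1 and 14.8 ± 1.405 CPM in wild type (log2 0.48, adjusted p = 0.00438). The aquaporin gene aqp-4 had 19.7 ± 2.47 CPM in fndc-1 and 12.1 ± 0.602 CPM in wild type (log2 0.70, adjusted p = 0.00136), and ncx-6, a sodium-calcium exchanger gene, had 4.76 ± 0.344 CPM in fndc-1 and 2.83 ± 0.478 CPM in wild type (log2 0.75, adjusted p = 0.00988). bas-1, the decarboxylase gene of serotonin and dopamine synthesis, had 19.6 ± 1.48 CPM in fndc-1 and 12.7 ± 2.25 CPM in wild type (log2 0.62, adjusted p = 0.00936). For all 5 genes each fndc-1 library was above each wild-type library. ncx-6 and bas-1 did not pass without wild-type libraries 2 and 4 (adjusted p = 0.0722 and 0.0665).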

How the data were processed

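Per the labels' protocols, RNA of frozen whole worms was taken up in Trizol, and a TruSeq RNA kit as well as TruSeq Stranded mRNA are named. The authors deposited raw counts per gene of 15 libraries. The submitters' processing notes name the tools Trimmomatic (0.36), STAR (2.6.0c) and featureCounts of Subread (1.6.1), and as build WBcel235. How strand and reads with several matches were treated, and which annotation was counted, is not known from the sources used here, so overlapping, antisense and near-identical genes are uncertain.

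Of 20191 genes, 15032 passed filterByExpr by strain. CPM use TMM-scaled library sizes. In edgeR 4.0.16 (R 4.3.3) a two-sided quasi-likelihood test was fitted to strain means of all 15 libraries, without a block, for fndc-1 minus wild type. P-values were adjusted by Benjamini-Hochberg over all genes, with a threshold of 0.05. Every adjusted p in the text is from this test or, where a setting is named, from the same test under it. The SE was taken as the absolute log2 value over the root of the F statistic, and 95% intervals use its normal quantile. Counting intervals and the floor of 3 counts over a strain cover counting error only. Nothing in the labels describes separate cultures, so p-values reflect a spread that may be technical.

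Positions come from Ensembl (18968 genes) or RefSeq locus tags (956), both on WBcel235, and 267 genes were not matched. Libraries of a strain differed pairwise by a chi-square of at least 8.07 per gene, so no column of counts is a copy of another. The values were uneven. They were 8.07 to 18.9 among fndc-1 libraries 1, 2 and 3, 16.4 between 4 and 5, and 60.5 to 89.1 between these sets. Wild-type libraries 2 and 4 differed by 13.5, and the other wild-type pairs by 31.7 to 103. Whether like libraries share a culture or preparation is not known, so n = 5 may overstate the number of independent units. The fit was also run on simulated counts, drawn independently for each library. That run could not address likeness among libraries of a strain.

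Members, lists and settings were chosen with earlier results of these data known. Genes were named by this rule: fndc-1, atfs-1 and the chaperones hsp-60 and hsp-6; the 12 largest rises and falls with a class symbol, no overlap and at least 5 CPM; up to 4 called members per list and direction; the 5 most abundant calls per direction. Of the 123 called genes named, 66 follow the rule. The others were picked after their values were seen, some of them for keeping their call: 70 of the 123, but 27 of the 66, kept it with each library left out. List scores use log2(CPM + 1).

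Settings tried were 2 further scalings (RLE, upper quartile), DESeq2 1.42.0, voom of limma 3.58.1, no filter, at least 1 CPM in 5 libraries, the 10 libraries alone, the replicate number as a block, a sperm covariate, pairs of libraries that stand apart left out, and each library left out.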

Additional observations from a re-analysis of the deposited data

Results flagged for a closer look

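Each strain's 5 values of the named genes and the 61 list scores were searched for a single library far from the rest, with a gap to the nearest library of more than 0.71 of the whole range. Of 384 groups of 5, 15 had one, and chance flags about 1 in 20 such groups. Among fndc-1 libraries, library 1 held 0.02034 CPM of T08D2.1 (a single count) where the others had 0, and 5.797 CPM of pqn-75 (others 7.347 to 7.963). Library 3 held 97.45 CPM of mlc-5 (others 103.3 to 105.3) and had a histone score of 0.169 (others -0.13 to -0.063). Library 4 held 0.6504 CPM of fbxa-192 (others 0.441 to 0.4678), and library 5 held 0.1164 CPM of cyp-37B1 (others 0.3808 to 0.4553). Among wild-type libraries, library 1 held 54.02 CPM of F15E6.4 (others 26.54 to 32), 13.14 CPM of aqp-4 (others 11.67 to 12.05), 6.075 CPM of irg-4 (others 3.415 to 3.663) and 1.396 CPM of klu-1 (others 0.903 to 0.9801), and its score of Argonautes and small RNA factors was -0.271 (others -0.036 to 0.059). Library 2 held 92.39 CPM of zipt-1 (others 101.7 to 104.5) and had a score of 0.044 for the TCA and glyoxylate cycles (others -0.033 to -0.02). Library 3 held 0.3965 CPM of srx-12 (others 0.2791 to 0.3079) and 130.4 CPM of dod-19 (others 104.4 to 110.2). Wild-type library 1 gave 5 of the 15 values.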

How the results depend on the processing

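Calls numbered 281 (178 higher, 103 lower). Their number was 784 (476 higher, 308 lower) with DESeq2, 575 (357 higher, 218 lower) with the 10 libraries alone and 632 (388 higher, 244 lower) with the sperm covariate. Leaving out pairs of libraries gave 1116 (554 higher, 562 lower) without double-mutant 2 and 4, 115 (71 higher, 44 lower) without wild-type 2 and 4, and 375 (305 higher, 70 lower) without fndc-1 4 and 5. Leaving out 1 library gave 146 to 736 calls, 92 to 374 higher and 50 to 362 lower, with the most of each without double-mutant library 2. The share of calls that were higher was 63.3%, and by more than 10 points different without fndc-1 4 and 5 (81.3%), without double-mutant 2 and 4 (49.6%) and without double-mutant 2 (50.8%). RLE (270), upper-quartile factors (245), voom (263), no filter (212) and the CPM filter (299) kept the count within 1.5-fold. Libraries with the same replicate number correlated at 0.0615, -0.591, 0.188, 0.43 and -0.24 between the strains in their deviations from the strain means. These values went both ways, and whether equal numbers mark a shared culture or day is not known from the sources used here. With the replicate block 155 (98 higher, 57 lower) genes passed, and with the block in the 10 libraries alone 231 (175 higher, 56 lower), or 75.8% higher. Of the called genes named, 51 kept their call under every setting run on them. A sign turned in 3 cases, none of a called gene: Y73B3A.11 ran from -0.41 to 0.075 with 1 library left out (0.054 without fndc-1 3, 0.075 without wild-type 4), and hsp-6 was at -0.045 without fndc-1 4 and 5. Of 1708 list medians under other settings, 70 moved by more than the spread between libraries. The cause of these shifts was not tested. Levels under 0.0653 CPM rest on fewer than 3 counts in some library.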
